A study of Mus musculus with 12 samples.

Results

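The 2-oxoglutarate-dependent dioxygenases are iron enzymes that use oxygen and 2-oxoglutarate to hydroxylate or demethylate DNA, RNA, histones and other proteins. 2-hydroxyglutarate (2-HG), the product of cancer-associated IDH1 and IDH2 mutants, resembles 2-oxoglutarate and is known as a competitive inhibitor of many of these enzymes. The family includes the TET enzymes, which oxidize 5-methylcytosine, the JmjC histone demethylases, the hydroxylases that control hypoxia-inducible factors (HIFs), the prolyl and lysyl hydroxylases of collagen, and the ALKBH family of nucleic acid demethylases. Fibroblasts are a main source of collagen, so the collagen hydroxylases are known for a particular role in these cells. The values below are transcript levels of the enzymes, not their activities. Members were the genes of a list of 44 such enzymes whose symbol is an entry of both deposited expression tables, and 43 were found among 20443 names listed in both tables. Tmlhe, a lysine hydroxylase of carnitine synthesis, was an entry of neither table.

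Transcripts were measured by Ion AmpliSeq RNA-seq in mouse embryonic fibroblasts (MEFs), in 12 libraries that fall into 4 groups of 3. The cells came from C57BL/6 embryos at embryonic day 13.5 and became immortal spontaneously during serial passage, a history that all 4 groups share. The 2MUT cells stably carried a FLAG-tagged human IDH2 with the R172S substitution after retroviral transduction and puromycin selection, and the Control cells carried the empty vector. The 2-HG(+) cells received 300 µM of membrane-permeant 2-HG for 24 h, and the 2-HG(-) cells received its solvent DMSO according to the sample labels, whereas the study's text calls them non-treated, and which holds is not settled here. The study's methods state that experiments were done in triplicate, without saying whether the libraries of a group came from separate cultures, so p-values measure the spread between these libraries only. No group expressing wild-type IDH2 was analysed here.

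Values were reads on a gene per 1000000 reads counted (RPM), from 6472439 to 7313602 reads per library in the mutant experiment and from 14959318 to 18363768 in the 2-HG experiment. A count of 3 reads corresponded to 0.41 to 0.464 RPM in the former and to 0.163 to 0.201 RPM in the latter, and such limits cover counting error only. Of 9 fibroblast markers, 7 reached the level required for a test in each table, with a summed level of 12981 to 22797 RPM in the libraries. S100a4 was at 0 to 0.293 RPM in the mutant experiment and was matched to no entry of the 2-HG table. Lum was at 1.18, 1.57 and 0.957 RPM in Control, at 0.155, 0 and 0 RPM in 2MUT libraries and at no more than 0.134 RPM in the 2-HG experiment. In 2MUT cells 1 of the 7 tested rose (Fn1, log2 fold change 0.43) and 5 fell, namely Thy1 (-1.71), Vim (-1.29), Col1a2 (-0.82), Pdgfrb (-0.27) and Col1a1 (-0.26). In limma, Pdgfrb was lost without any one library (adjusted p from 0.055 to 0.18), Col1a1 without Control 3, 2MUT 2 or 2MUT 3 (0.069 to 0.11) and with no trend (0.11), and Fn1 without 2MUT 3 (0.0535), with no trend (0.055) and without moderation (0.099). With 2-HG Thy1 rose (0.71) and 3 fell, namely Pdgfrb (-1.53), Pdgfra (-1.38) and Col1a2 (-0.81), where with no filter Thy1 and Col1a2 were lost (limma, adjusted p = 0.11 and 0.12), and Thy1 also without moderation (0.072). Summed epithelial markers reached at most 0.6 RPM, endothelial markers 3.4 RPM, muscle markers 3.46 RPM and leukocyte markers 13.4 RPM, nearly all of the last from Cd68. With 2-HG Cd68 fell (12.9, 13.4 and 11 RPM against 7.67, 8.12 and 9.61 RPM, log2 fold change -0.51, limma, adjusted p = 0.021, and 0.061 to 0.072 without 2-HG(-) 1, 2-HG(-) 2 or 2-HG(+) 2). The call of Cd68 was also lost with no filter (limma, adjusted p = 0.075) and without moderation (0.055). The part of these movements in the results below was not tested, and in bulk samples fewer cells of a type and less RNA per cell cannot be told apart. The entry Idh2 was lower in 2MUT than in Control cells (49.6 against 77.3 RPM on average). Whether its amplicons also read the human transgene is not given in the sources used here, so its values are not assigned to the endogenous gene alone.

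The first question was whether transcripts of the enzymes changed with mutant IDH2. Of the 43 members, 41 averaged 1 RPM or more over the mutant experiment and were tested, and the exceptions were Hif1an and Alkbh7. In 2MUT cells 11 members rose and 2 fell, with a Benjamini-Hochberg adjusted p under 0.05 in limma over all 11065 genes tested. The 11 were 26.8% of the members tested, where 16.5% of all genes rose, and the 2 were 4.88%, where 17.3% of all genes fell. In either direction, 31.7% of the members and 33.8% of all genes passed. The members' median log2 fold change was 0.15 and that of all genes 0.01. Those that rose were 4 of the 6 collagen hydroxylases (P4ha2, P4ha3, Plod1 and Plod2), the HIF prolyl hydroxylase Egln1, the DNA oxidase Tet3, 4 of 17 JmjC proteins (Kdm5a, Kdm5b, Kdm8 and Jmjd6) and the aspartyl hydroxylase Asph. Those that fell were the nucleic acid demethylases Alkbh1 and Fto.

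The second question was whether 2-HG added to the medium changed the same transcripts. Again 41 members were tested, now with Hif1an and without Kdm4d and Alkbh7. With 2-HG only P4ha2 rose among them, whereas 6 members fell, namely Tet2, Kdm3a, Kdm3b, Phf8, P4ha3 and Plod1. These were 2.44% and 14.6% of the members tested, where 16.1% of all 10384 genes rose and 16.7% fell. In either direction, 17.1% of the members and 32.8% of all genes passed. The median log2 fold change was -0.09 for the members and -0.02 for all genes. In all, 17 members passed the threshold in at least one comparison and 3 in both, of which only P4ha2 moved in the same direction, while 25 members that were tested at least once passed in neither. The library 2-HG(+) 1 lay farthest from its group's median for 24 of the 41 members (58.5%), and for 52.0% of all genes tested. Without it, Tet1 and Kdm4b also fell (limma, adjusted p = 0.0095 and 0.016) and Alkbh2, Alkbh3 and Ogfod1 also rose (0.0478, 0.033 and 0.0486), so that 4 members rose. Without 2-HG(-) 2, Kdm5a and Fto also fell (0.022 and 0.024) and Jmjd6 and P4htm rose (0.024 and 0.027).

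**Figure D1:**
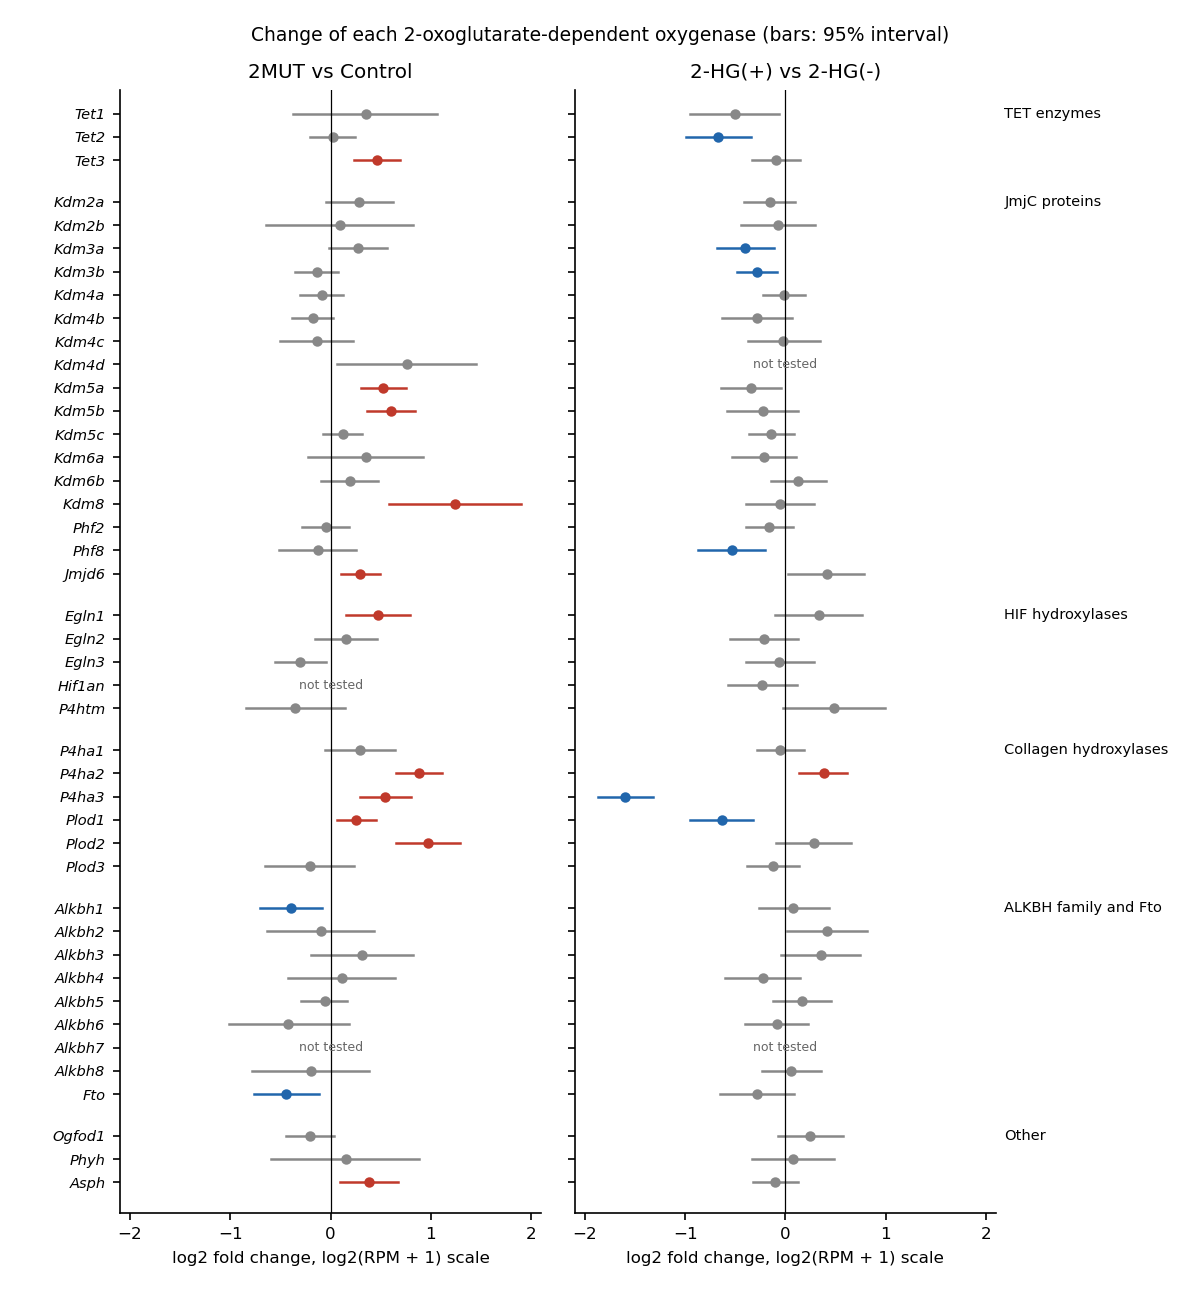
The log2 fold change of each member on the log2(RPM + 1) scale, with its 95% interval, is shown for 2MUT against Control (left) and for 2-HG(+) against 2-HG(-) (right), in red where it rose, blue where it fell and grey where the test was not passed. The red points lie mostly on the left (11 of 41 members, against 1 of 41 on the right), and P4ha3 at -1.60 stands lowest on the right.

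The collagen hydroxylases act in the endoplasmic reticulum. P4ha1, P4ha2 and P4ha3 are alternative catalytic subunits of prolyl 4-hydroxylase, whose product 4-hydroxyproline stabilizes the collagen triple helix, and Plod1, Plod2 and Plod3 are lysyl hydroxylases, whose product hydroxylysine is used in cross-links. All 6 were tested in both comparisons. In 2MUT cells 4 rose and 0 fell, and with 2-HG 1 rose and 2 fell. Of all genes, 16.5% rose and 17.3% fell in 2MUT cells, and 16.1% rose and 16.7% fell with 2-HG. The same shares stand beside the counts of the other classes below. For the 0 that fell in 2MUT cells, limma at an unadjusted p under 0.05, edgeR and DESeq2 gave 0 as well.

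P4ha2 lies on chromosome 11 from 54100095 to 54131665 of GRCm38. Its level was 512, 563 and 629.6 RPM in the Control libraries and 939, 1116 and 1081 RPM in the 2MUT libraries. It was 217, 189 and 203 RPM in the 2-HG(-) libraries and 236, 273 and 283 RPM in the 2-HG(+) libraries. Every mutant library lay above every Control library, and every 2-HG(+) library above every 2-HG(-) library, although 2-HG(+) 1 exceeded the highest 2-HG(-) library by little. The log2 fold change was 0.88 ± 0.10 (SE) in 2MUT (limma, adjusted p = 0.0001) and 0.38 ± 0.10 with 2-HG (adjusted p = 0.021). The call in the 2-HG comparison was lost without 2-HG(-) 2, 2-HG(-) 3, 2-HG(+) 2 or 2-HG(+) 3 (limma, adjusted p from 0.057 to 0.077), and under quantile normalization (0.0538), with no filter (0.095) and without moderation (0.07).

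P4ha3 (chromosome 7, 100285520 to 100319699) moved in opposite directions. The Control libraries held 36, 32.6 and 34.5 RPM and the 2MUT libraries 51, 50.5 and 49.8 RPM. The 2-HG(-) libraries held 43.4, 43.7 and 42.1 RPM, and the 2-HG(+) libraries 11.8, 14.1 and 15 RPM. The groups were far apart in both experiments compared with the spread within a group, which was at most 1.68 RPM (SD, n = 3). The mutant cells had 1.47-fold the Control level (log2 fold change 0.54 ± 0.12, limma, adjusted p = 0.0044), whereas the 2-HG(+) cells had 0.317 of the 2-HG(-) level (log2 fold change -1.60 ± 0.12, adjusted p = 1.9e-05). On the log2(RPM + 1) scale the latter was the largest change of any member in either comparison. As a ratio of means, the 3.22-fold rise of the low-level Kdm8 in 2MUT cells was of about the same size. Both calls of P4ha3 were kept under each alternative tried.

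The lysyl hydroxylase Plod1 (chromosome 4, 147909753 to 147936767) also moved in opposite directions, by less. It was at 184, 202 and 205 RPM in Control and 231, 235 and 238 RPM in 2MUT libraries, and at 180.0, 174 and 178 RPM in 2-HG(-) and 120.4, 90.2 and 137 RPM in 2-HG(+) libraries. The groups did not overlap in either experiment. The fall with 2-HG was -0.63 ± 0.14 on the log2 scale (limma, adjusted p = 0.0078, and 0.11 with no filter or 0.08 without moderation). The rise in 2MUT was 0.25 ± 0.09 (limma, adjusted p = 0.0497). That rise lies at the threshold. It was lost without Control 1, without Control 2 and without any one of the 2MUT libraries (limma, adjusted p from 0.067 to 0.14), and with edgeR on whole reads (adjusted p = 0.058).

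Plod2 (chromosome 9, 92542223 to 92608428), the lysyl hydroxylase of the collagen telopeptides, showed the largest rise among the collagen enzymes. Control libraries held 344, 216 and 256 RPM and 2MUT libraries 519, 490.2 and 563 RPM, so that even the highest Control library lay well below the lowest 2MUT library. The log2 fold change was 0.97 ± 0.15 (limma, adjusted p = 0.00049). With 2-HG the libraries held 259.5, 174 and 161 RPM against 153, 174 and 152 RPM without it. The groups overlapped, with the treated library 1 alone standing high, and the test was not passed (log2 fold change 0.28, 95% interval -0.09 to 0.65).

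The remaining enzymes of the group, P4ha1 and Plod3, passed in neither comparison. P4ha1 ranged from 36.8 to 56.5 RPM in Control and from 52.2 to 61.9 RPM in 2MUT libraries (log2 fold change 0.29, 95% interval -0.06 to 0.64), and from 663 to 805 RPM over the 2-HG experiment (-0.05, interval -0.28 to 0.19). Plod3 had log2 fold changes of -0.21 (interval -0.65 to 0.23) and -0.12 (-0.38 to 0.14). The 3 catalytic subunits of prolyl 4-hydroxylase thus differed in their calls, with P4ha2 higher in both comparisons, P4ha3 higher in one and lower in the other, and P4ha1 called in neither.

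**Figure D2:**
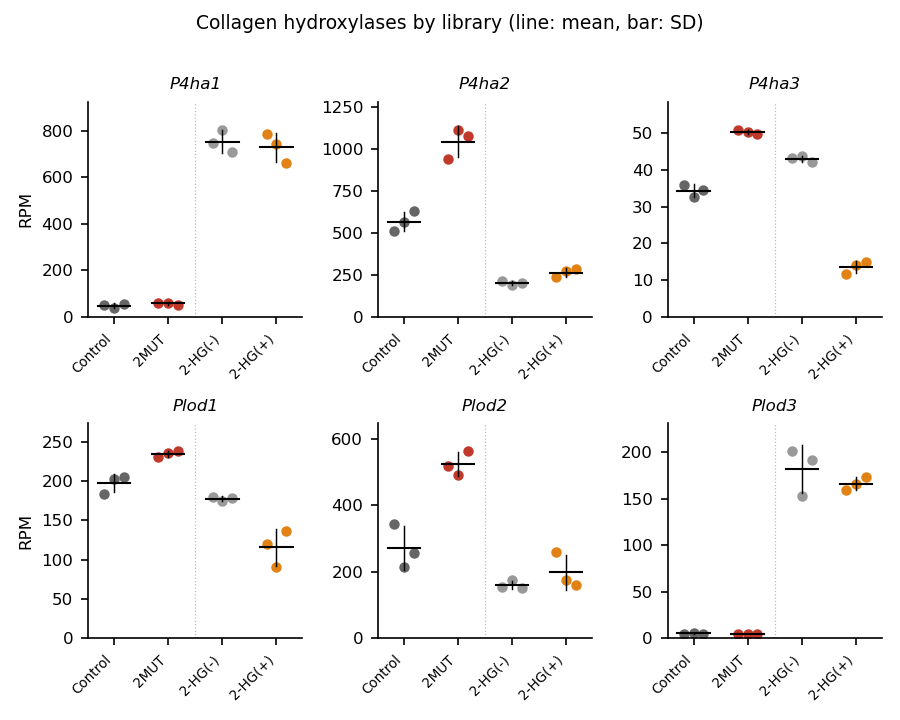
The level of each collagen hydroxylase in RPM is shown for every library, with the mean (line) and SD (bar) of the 3 libraries of a group, and the dotted line separates the 2 experiments, which were normalized separately. P4ha2 is higher in 2MUT and in 2-HG(+) libraries, P4ha3 falls to between 11.8 and 15 RPM in the 2-HG(+) libraries, and P4ha1 and Plod3 overlap between the groups of each experiment.

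Several collagen and HIF hydroxylase genes are textbook targets of HIF. ACGTG is one form of the core of its binding element and the only form searched here, so the counts below do not cover every possible core. Promoters of 36 members (45 start sites) were found among RefSeq promoters of GRCm38.p6, each from 250 bases before to 50 after a start site. The letters ACGTG, read on both strands (CACGT on the reverse), occurred in at least one promoter of 15 of these genes (41.7%), and in 21.8% of all 27025 genes. Per promoter these shares were 15 of 45 (33.3%) and 19.6% of 32851. The promoters of the prolyl 4-hydroxylase subunits are shown because the subunits differed in their changes, and that of Egln1 because Egln1 is a HIF hydroxylase that rose in 2MUT cells. They were chosen after the values were seen, each is printed 5′ to 3′ along the gene's strand, and capitals mark ACGTG or CACGT.
P4ha1, chr10:59323046-59323345, plus strand: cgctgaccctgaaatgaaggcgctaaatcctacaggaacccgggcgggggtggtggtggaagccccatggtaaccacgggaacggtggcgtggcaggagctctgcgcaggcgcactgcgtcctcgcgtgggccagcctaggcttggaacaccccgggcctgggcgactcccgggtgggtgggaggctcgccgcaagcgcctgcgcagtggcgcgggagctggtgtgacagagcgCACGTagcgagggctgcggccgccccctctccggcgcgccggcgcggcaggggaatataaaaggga
P4ha2, chr11:54100674-54100973, plus strand: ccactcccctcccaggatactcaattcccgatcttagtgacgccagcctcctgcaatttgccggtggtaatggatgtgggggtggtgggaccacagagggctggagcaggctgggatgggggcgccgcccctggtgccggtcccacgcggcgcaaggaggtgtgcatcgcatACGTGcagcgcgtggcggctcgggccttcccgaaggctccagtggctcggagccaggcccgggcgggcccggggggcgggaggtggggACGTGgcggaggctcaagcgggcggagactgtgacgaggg
P4ha3, chr7:100285270-100285569, plus strand: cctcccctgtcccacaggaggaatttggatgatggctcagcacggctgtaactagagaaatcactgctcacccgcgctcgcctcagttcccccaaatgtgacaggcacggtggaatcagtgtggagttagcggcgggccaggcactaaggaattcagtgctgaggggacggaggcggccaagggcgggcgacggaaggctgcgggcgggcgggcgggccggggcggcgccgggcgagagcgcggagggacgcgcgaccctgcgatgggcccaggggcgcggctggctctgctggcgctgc
Egln1, chr8:124949205-124949504, minus strand: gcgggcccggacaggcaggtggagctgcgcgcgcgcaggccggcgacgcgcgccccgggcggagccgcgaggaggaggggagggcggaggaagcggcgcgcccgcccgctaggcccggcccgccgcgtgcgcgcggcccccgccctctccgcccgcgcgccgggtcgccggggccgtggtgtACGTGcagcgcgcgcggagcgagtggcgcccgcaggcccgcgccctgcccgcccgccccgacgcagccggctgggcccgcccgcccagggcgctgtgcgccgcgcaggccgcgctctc
P4ha2 held 2 matches, P4ha1 and Egln1 1 each, and P4ha3 held 0. These letters are not in this window of P4ha3, and a match is a description of the sequence only. Matches also lay in promoters of members that passed in neither comparison, such as Plod3, Kdm6a and Egln2. No promoter entry was found for Plod2, so none was searched for it.

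The HIF hydroxylases are Egln1, Egln2 and Egln3, which mark HIF-alpha subunits for degradation by VHL, Hif1an, which blocks their transactivation domain, and the membrane enzyme P4htm. In 2MUT cells 1 of 4 tested rose and 0 fell with limma, and edgeR and DESeq2 each called the same rise and 1 fall, that of Egln3. With 2-HG 0 of 5 were called with limma, edgeR or DESeq2, and 0 had an unadjusted p under 0.05.

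Egln1 was at 306, 221 and 302 RPM in Control and at 368, 329 and 453 RPM in 2MUT libraries. The groups did not overlap, although Control 2 and 2MUT 3 widened the spread (log2 fold change 0.47 ± 0.15, limma, adjusted p = 0.028). The call was lost without Control 2, 2MUT 1 or 2MUT 3 (limma, adjusted p from 0.062 to 0.12). In the 2-HG experiment Egln1 was at 159, 187 and 183 RPM without 2-HG and at 316, 196 and 175 RPM with it. Here again the treated library 1 stood high while the other two lay near the 2-HG(-) level, and the test was not passed (log2 fold change 0.33, 95% interval -0.10 to 0.76).

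Egln3, which is known to be strongly induced in hypoxia, was at 99.3, 116 and 124 RPM in Control and at 89.5, 97.5 and 86.8 RPM in 2MUT libraries. Each 2MUT library lay below each Control library, but limma's adjusted p was 0.061 (log2 fold change -0.30 ± 0.11), against 0.048 with edgeR and 0.044 with DESeq2. Without Control 1 limma's adjusted p was 0.021. Egln2 overlapped between the groups in both experiments. P4htm had a log2 fold change of -0.35 in 2MUT (95% interval -0.84 to 0.14) and of 0.48 with 2-HG (-0.02 to 0.99). Hif1an was at 0 to 1.28 RPM in the mutant experiment, which was too low for a test, and at 9.85 to 14.9 RPM in the 2-HG experiment, where the groups overlapped.

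The TET enzymes convert 5-methylcytosine to 5-hydroxymethylcytosine and further products, and loss of this activity is associated with DNA hypermethylation in IDH-mutant tumours. Tet3 (chromosome 6, 83362373 to 83459084) was at 74.3, 80.9 and 73.2 RPM in Control and at 105, 109.9 and 100.0 RPM in 2MUT libraries. The groups were well separated, and the log2 fold change was 0.46 ± 0.10 (limma, adjusted p = 0.0056). With 2-HG it was at 25.2, 26 and 28 RPM against 28.5, 26.9 and 29.1 RPM, with overlap (log2 fold change -0.09, 95% interval -0.33 to 0.15).

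Tet2 (chromosome 3, 133463679 to 133545139) showed the reverse arrangement. It was at 87.6, 102 and 97.4 RPM in Control and at 96.9, 98.4 and 94.8 RPM in 2MUT libraries, which overlapped (log2 fold change 0.02, 95% interval -0.21 to 0.24). It was at 39.1, 51.5 and 47.3 RPM without 2-HG and at 32.6, 24.3 and 28.8 RPM with it. Every 2-HG(+) library lay below every 2-HG(-) library, with a log2 fold change of -0.67 ± 0.14 (limma, adjusted p = 0.0066), and the call was kept when any one library was left out, but not with no filter (0.082) or without moderation (0.062). Tet1 was at most 13.7 RPM in any library, and its groups overlapped in both experiments (log2 fold changes 0.35 and -0.50, limma, adjusted p = 0.44 and 0.081).

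The JmjC proteins remove methyl groups from histone lysines, or hydroxylate other proteins. In 2MUT cells 4 of 17 rose and 0 fell, and with 2-HG 0 of 16 rose and 3 fell. No JmjC member fell in 2MUT cells at an unadjusted p under 0.05 in limma, or with edgeR or DESeq2. For the 0 that rose with 2-HG, edgeR and DESeq2 gave 0, and 1 (Jmjd6) had an unadjusted p under 0.05. With the TET enzymes included, 14 of 20 log2 fold changes were above 0 in 2MUT cells (median 0.23), and 17 of 19 were below 0 with 2-HG (median -0.16). These were 70.0% and 89.5%, where 50.8% of all 11065 genes lay above 0 in 2MUT cells and 52.3% of all 10384 genes below 0 with 2-HG. Over all members tested, 25 of 41 lay above 0 in 2MUT cells and 28 of 41 below 0 with 2-HG. The ALKBH family with Fto had the other order, with 6 of 8 below 0 in 2MUT cells and 5 of 8 above 0 with 2-HG. These signs count members whether or not they passed, and the members of a library share its depth and composition.

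Kdm5a and Kdm5b, demethylases of histone H3 lysine 4, both rose in 2MUT cells. Kdm5a was at 74, 67.2 and 73.4 RPM in Control and at 106, 105 and 99.3 RPM in 2MUT libraries. Kdm5b was at 105, 104 and 123 RPM in Control and at 154, 179 and 171 RPM in 2MUT libraries. Neither gene's groups overlapped, and the log2 fold changes were 0.52 ± 0.10 and 0.60 ± 0.11 (limma, adjusted p = 0.0025 and 0.0016), kept under each alternative tried. With 2-HG, Kdm5a was at 65.6, 77 and 82.2 RPM against 105, 79.6 and 101 RPM, and the groups overlapped (log2 fold change -0.34, limma, adjusted p = 0.08). Kdm5b overlapped as well (log2 fold change -0.22, 95% interval -0.58 to 0.13), and Kdm5c, the X-linked enzyme of the same family, passed in neither comparison (0.12 and -0.14).

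Kdm8 (chromosome 7, 125444676 to 125462269), a JmjC hydroxylase also known as Jmjd5, had the largest fold change among the members in 2MUT cells, at a low level. It was at 1.33, 2.28 and 0.547 RPM in Control and at 5.41, 4.68 and 3.3 RPM in 2MUT libraries. These values rest on 9, 16 and 4 reads and on 35, 32 and 24 reads. The groups did not overlap, and the log2 fold change was 1.24 ± 0.30 (limma, adjusted p = 0.0083), a scale that understates the 3.22-fold ratio of the means because 1 RPM was added. Without moderation limma's adjusted p was 0.086. With 2-HG the values lay between 2.52 and 3.43 RPM in all 6 libraries (log2 fold change -0.05, 95% interval -0.39 to 0.28).

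Jmjd6, a lysyl hydroxylase of RNA-splicing proteins, was at 159.8, 160.3 and 167 RPM in Control and at 205, 198 and 194 RPM in 2MUT libraries. The groups were tight and apart, and the log2 fold change was 0.29 ± 0.09 (limma, adjusted p = 0.026). The call was lost without Control 2 or without any one of the 2MUT libraries (limma, adjusted p from 0.056 to 0.099). With 2-HG it was at 73.4, 64.1 and 55.5 RPM against 47.9, 59.9 and 38.5 RPM, with overlap, and it did not pass (log2 fold change 0.41, limma, adjusted p = 0.089).

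Of the 3 JmjC genes that fell with 2-HG, Phf8, a demethylase of histone H3 lysine 9 and histone H4 lysine 20, had the largest fold change. It was at 9.47, 8.29 and 10.9 RPM without 2-HG and at 5.49, 6.43 and 6.93 RPM with it. The highest 2-HG(+) library lay below the lowest 2-HG(-) library (log2 fold change -0.53 ± 0.15, limma, adjusted p = 0.022). The call was lost without 2-HG(-) 1, 2-HG(-) 3, 2-HG(+) 1 or 2-HG(+) 2 (limma, adjusted p from 0.053 to 0.096), and with no filter (0.093) or without moderation (0.065). In the mutant experiment Phf8 overlapped, with 22.2 to 31.7 RPM in Control and 20.4 to 27.5 RPM in 2MUT libraries.

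Kdm3a and Kdm3b are demethylases of histone H3 lysine 9. With 2-HG, Kdm3a was at 57, 42.1 and 47.8 RPM against 60.7, 69.7 and 62.6 RPM (log2 fold change -0.40 ± 0.13, limma, adjusted p = 0.039). Kdm3b was at 104, 101 and 102 RPM against 123, 119 and 132 RPM (log2 fold change -0.28 ± 0.09, adjusted p = 0.038). Both fell without overlap of the groups. The call of Kdm3a was lost without any one library other than 2-HG(+) 1 (limma, adjusted p from 0.062 to 0.16) and also with edgeR (0.072), DESeq2 (0.066), each of 3 other scalings (0.062 to 0.078), no filter (0.18), no trend (0.0535) and no moderation (0.12). The call of Kdm3b was lost without any one library other than 2-HG(-) 2 (limma, adjusted p from 0.0509 to 0.14) and with DESeq2 (0.0518), median-of-ratios scaling (0.062) and no trend (0.064). In 2MUT cells the log2 fold changes were 0.27 for Kdm3a (95% interval -0.02 to 0.56) and -0.14 for Kdm3b (-0.35 to 0.07).

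The remaining JmjC members passed in neither comparison. These were the H3 lysine 36 demethylases Kdm2a and Kdm2b, the H3 lysine 9 and 36 demethylases Kdm4a, Kdm4b and Kdm4c, the H3 lysine 9 demethylase Kdm4d, the H3 lysine 27 demethylases Kdm6a and Kdm6b, Phf2 and Kdm5c. Kdm4b was lower in each 2MUT library (175 to 186 RPM) than in each Control library (192 to 213 RPM), without passing (log2 fold change -0.18, limma, adjusted p = 0.15). Kdm4d was detected at 1.04 to 4.02 RPM in the mutant experiment (log2 fold change 0.76, limma, adjusted p = 0.088). It passed without Control 2 (1.14, adjusted p = 0.0087) and with no filter (0.019). In the 2-HG experiment Kdm4d was at 0 to 0.48 RPM and was not tested. Kdm2a passed as higher in 2MUT cells without Control 3 (0.42, limma, adjusted p = 0.0459).

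**Figure D3:**
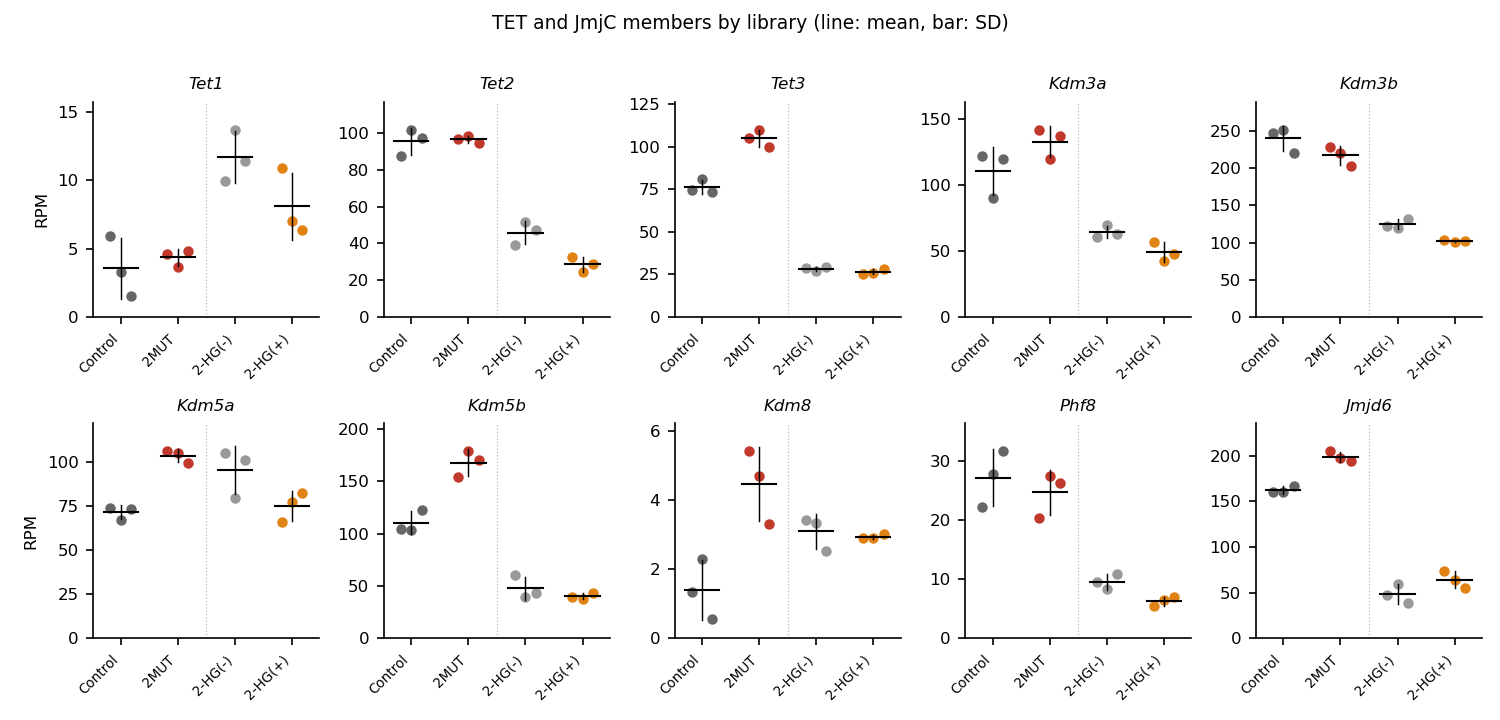
Levels in RPM of 10 TET and JmjC members are shown by library, with the mean (line) and SD (bar) of each group of 3, and axes that start at 0. Tet3, Kdm5a, Kdm5b, Kdm8 and Jmjd6 are higher in each 2MUT library than in each Control library, and Tet2, Kdm3a, Kdm3b and Phf8 are lower in each 2-HG(+) library than in each 2-HG(-) library.

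Of the ALKBH family with Fto, 8 genes were tested in each experiment. In 2MUT cells 2 fell and 0 rose, with no rise at an unadjusted p under 0.05 in limma or by edgeR or DESeq2. With 2-HG 0 were called by limma, edgeR or DESeq2, and 1 (Alkbh2) had an unadjusted p under 0.05 in limma. Fto, a demethylase of N6-methyladenosine in RNA, was at 124, 180.1 and 155 RPM in Control and at 100.1, 130.2 and 106 RPM in 2MUT libraries. The groups overlapped, since 2MUT 2 lay above Control 1, but the test was passed (log2 fold change -0.44 ± 0.15, limma, adjusted p = 0.038). Without Control 2, 2MUT 1 or 2MUT 3 it was not (adjusted p from 0.11 to 0.14).

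Alkbh1, which acts on methylated DNA and transfer RNA, was at 29.6, 28.8 and 33 RPM in Control and at 21.9, 21.7 and 25.3 RPM in 2MUT libraries. The groups were apart and the log2 fold change was -0.39 ± 0.14 (limma, adjusted p = 0.0474). Leaving out any one library ended this call (adjusted p from 0.057 to 0.14), as did DESeq2 (0.059). With 2-HG the log2 fold changes were 0.08 for Alkbh1 (95% interval -0.26 to 0.43) and -0.28 for Fto (-0.65 to 0.09).

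Alkbh5, the other demethylase of N6-methyladenosine, was at 435 to 555 RPM over the mutant experiment (log2 fold change -0.06, 95% interval -0.29 to 0.16). With 2-HG it was at 370.5, 268 and 273 RPM against 264, 276 and 263 RPM, again with the treated library 1 alone standing high. Alkbh2 and Alkbh3, which repair alkylated DNA, had log2 fold changes of 0.41 and 0.35 with 2-HG that did not pass (limma, adjusted p = 0.10 and 0.16). Under quantile normalization Alkbh2 passed as higher (0.68, limma, adjusted p = 0.016), and there it was the 1 member that rose, since P4ha2 was lost. Alkbh7, a mitochondrial enzyme, stayed at or below 1.24 RPM in each of the 12 libraries and was not tested.

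Among the remaining members, Asph, which hydroxylates epidermal growth factor-like domains, rose in 2MUT cells. It was at 291, 213 and 280.2 RPM in Control and at 341, 296 and 379 RPM in 2MUT libraries, with the lowest 2MUT library just above the highest Control library. The log2 fold change was 0.38 ± 0.13 (limma, adjusted p = 0.0473). The call was lost without Control 2, 2MUT 1 or 2MUT 3 (limma, adjusted p from 0.12 to 0.18), with edgeR (0.059) and under median-of-ratios or TMM scaling (both 0.056). Ogfod1, a prolyl hydroxylase of the ribosomal protein uS12, was at 58.4 to 65.4 RPM in 2MUT and at 67.5 to 73.9 RPM in Control libraries, which did not overlap, without passing (log2 fold change -0.21, limma, adjusted p = 0.17). Phyh, the peroxisomal phytanoyl-CoA hydroxylase, passed in neither comparison.

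**Figure D4:**
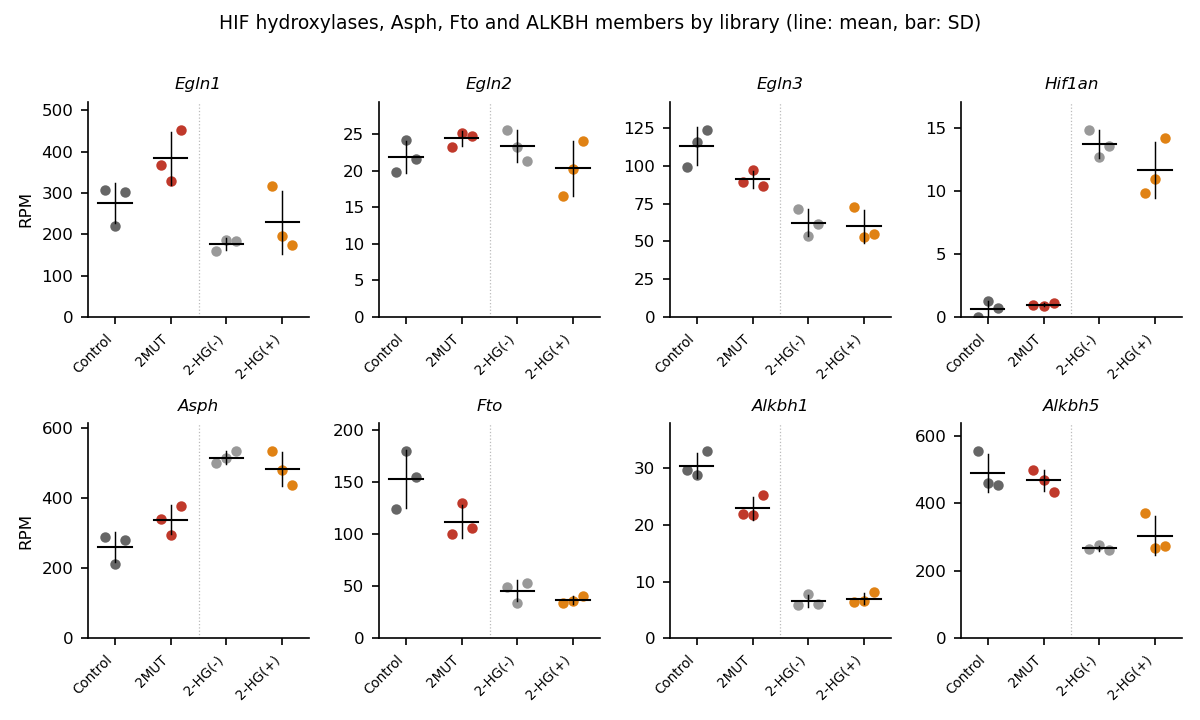
Levels in RPM of the HIF hydroxylases Egln1, Egln2, Egln3 and Hif1an, and of Asph, Fto, Alkbh1 and Alkbh5, are shown by library with the mean (line) and SD (bar) of each group of 3. Egln1 and Asph are higher and Alkbh1 lower in each 2MUT library than in each Control library, and 2-HG(+) library 1 stands alone in Egln1 (316 RPM) and Alkbh5 (370.5 RPM).

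Whether a member responded differently to the mutant and to added 2-HG was tested directly, as the contrast of both changes over the 12 libraries, for the 40 members tested in both tables. The change in 2MUT cells exceeded the change with 2-HG for 10 members (limma, adjusted p under 0.05 over 9610 genes), and for 0 members was it smaller. Of all genes, 19.9% had a larger and 19.5% a smaller change, 39.4% together. Among other oxygenases of the family, outside the members, Jmjd8 (-1.09) and Hspbap1 (-0.71) had a smaller change in 2MUT cells. Ogfod3 (0.97) had a larger one (limma, adjusted p = 0.0007, 0.0079 and 0.0012, in this order). At an unadjusted p under 0.05, the change was larger for 12 members and smaller for 3. The 10 members were Tet2, Tet3, Kdm3a, Kdm5a, Kdm5b, Kdm8, P4ha2, P4ha3, Plod1 and Plod2.

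The difference was largest for P4ha3, at 2.14 on the log2(RPM + 1) scale (95% interval 1.80 to 2.47, limma, adjusted p = 2.7e-07). It was 1.29 for Kdm8 (0.55 to 2.03), 0.89 for Plod1 (0.51 to 1.26), 0.86 for Kdm5a (0.50 to 1.23) and 0.82 for Kdm5b (0.39 to 1.26). P4ha2 rose in both comparisons, and its rise was larger in 2MUT cells by 0.50 (0.17 to 0.83, limma, adjusted p = 0.019), a call lost without 2MUT 2 (0.0509). Plod2 had a difference of 0.69 (0.15 to 1.23, limma, adjusted p = 0.043). It was lost without any one of 10 of the 12 libraries, the exceptions being Control 1 and 2-HG(+) 1 (adjusted p from 0.055 to 0.10). For Egln1 the difference of 0.14 (-0.45 to 0.74) left room for either direction. P4htm had the difference nearest to the threshold on the other side (-0.83, limma, adjusted p = 0.054), and under quantile normalization 4 members passed on that side (Ogfod1, P4htm, Alkbh1 and Alkbh2). Asph missed it on the larger side (0.47, limma, adjusted p = 0.051), but passed under quantile normalization (0.019) and with the replicate block (0.038). With one library left out, limma's test of the difference was passed by P4htm without Control 3, 2MUT 3 or 2-HG(-) 2 (adjusted p from 0.015 to 0.0453) and by Asph without Control 1, Control 3, 2MUT 2 or 2-HG(+) 1 (0.031 to 0.039). It was also passed by Ogfod1 without 2-HG(-) 3 or 2-HG(+) 1 (0.0498 and 0.012), Alkbh1 without 2-HG(-) 2 (0.038), Tet1 without Control 1 (0.016) and Kdm2a without Control 3 (0.015). The change in 2MUT cells was the larger one for Asph, Tet1 and Kdm2a and the smaller one for P4htm, Ogfod1 and Alkbh1. The experiments differed in depth and in their lists of entries, and these cannot be told apart from the difference between mutant and treatment.

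Levels of some members also differed widely between the Control and the 2-HG(-) cells, neither of which carried mutant IDH2 or received 2-HG. The tables were normalized separately, list 43280 and 23930 entries and share no library, so these levels are given side by side without a test. The study names the same kit for all libraries, but whether both lists rest on the same amplicons was not settled here. A difference in what was measured cannot be told apart from a difference in expression. On the log2(RPM + 1) scale 8 of 43 members (18.6%) differed by more than 4-fold, as did 16.9% of all 10804 names with at least 1 RPM in one of these groups. Plod3 was at 5.25 ± 0.844 RPM in Control and at 182 ± 25.6 RPM in 2-HG(-) cells (SD, n = 3 each). P4ha1 was at 48.1 ± 10.2 and 753 ± 48.8 RPM, and Kdm6a at 1.79 ± 0.4 and 21.3 ± 2.81 RPM. Alkbh1 was the member with the reverse order among these 8 (30.4 ± 2.21 and 6.58 ± 1.01 RPM). P4ha3 and Plod1 were at similar levels in both (34.3 against 43 RPM and 197 against 178 RPM). A member that was low in one table was therefore measured there with few reads, as Kdm6a was in the mutant experiment, with 9 to 24 reads per library.

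**Figure D5:**
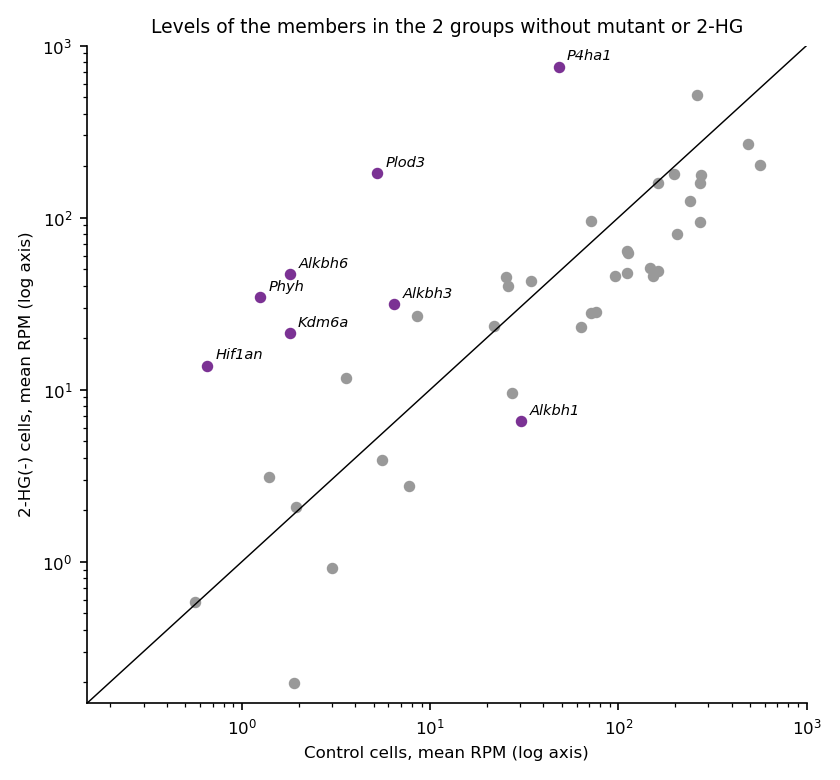
The mean level of each of the 43 members in Control cells (horizontal) is plotted against that in 2-HG(-) cells (vertical), in RPM on log axes, with the line of equal levels. The 8 members that differed by more than 4-fold on the log2(RPM + 1) scale are named, and 7 of them lie above the line.

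Other enzymes of the family outside the 44 were described from a list of 23 genes. Of 16 tested in 2MUT cells, 4 rose and 3 fell, and of 16 tested with 2-HG, 2 rose and 5 fell. In each comparison 43.8% of those tested passed, where 33.8% of all genes passed in 2MUT cells and 32.8% with 2-HG. The prolyl 3-hydroxylases of collagen were in this list. P3h1 fell with 2-HG from 203, 211 and 207 RPM to 150.2, 155 and 167 RPM (log2 fold change -0.39 ± 0.09, limma, adjusted p = 0.0083). In 2MUT cells, where it is listed as Lepre1, its groups overlapped (log2 fold change 0.30, adjusted p = 0.19). P3h2, listed as Leprel1 in the mutant table, was at 505, 536 and 272 RPM in Control and 131, 137 and 138 RPM in 2MUT libraries, and at 38.6, 43.9 and 43.2 RPM without and 13.2, 12.3 and 12.1 RPM with 2-HG. It fell in both (log2 fold changes -1.62 and -1.67, limma, adjusted p = 0.00016 and 9.3e-06). P3h3 had the pattern of P4ha3 and Plod1, with a rise of 0.52 in 2MUT cells (listed as Leprel2, limma, adjusted p = 0.0029) and a fall of -0.58 with 2-HG (adjusted p = 0.0086, and 0.09 with no filter or 0.068 without moderation). For these genes, which carry different symbols in the tables, both changes were not tested against each other. Jmjd8 fell in both (-1.42 and -0.33, limma, adjusted p = 0.0001 and 0.03). Its call with 2-HG was lost with no filter (0.058) and without any one library other than 2-HG(-) 1 (0.056 to 0.083). Riox2, listed as Mina, rose in both (0.45 and 0.88, limma, adjusted p = 0.04 and 0.0023). Its call in 2MUT cells was lost without any one library other than Control 3 (0.059 to 0.15), with no filter (0.17) and without moderation (0.0528).

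Partners and substrates of the members were described from a list of 16 genes. In 2MUT cells 5 of 13 tested passed, all of them rises (Hif1a, Crtap, P4hb, Slc23a2 and Ogt), and with 2-HG 2 of 13 passed, both of them falls (Epas1 and Arnt). These were 38.5% and 15.4% of those tested, where 33.8% and 32.8% of all genes passed in either direction. Of all genes, 16.5% rose in 2MUT cells and 16.7% fell with 2-HG. Hif1a, the substrate of the Egln enzymes, was at 83, 84.3 and 76.6 RPM in Control and at 267, 232 and 256 RPM in 2MUT libraries, a wide separation (log2 fold change 1.62 ± 0.10, limma, adjusted p = 1.3e-06). With 2-HG it overlapped (0.02, 95% interval -0.28 to 0.31). Crtap, which forms a complex with prolyl 3-hydroxylase, rose by 1.33 ± 0.10 (limma, adjusted p = 4.4e-06), and P4hb, the beta subunit of prolyl 4-hydroxylase, by 0.49 ± 0.08 (adjusted p = 0.00074). Neither passed with 2-HG (-0.05 and -0.20). The genes that fell with 2-HG were the HIF subunits Epas1 and Arnt (-0.48 and -0.46, limma, adjusted p = 0.026 and 0.022). Epas1 was low, at 1.63, 1.8 and 1.68 RPM without and at 0.859, 0.902 and 1.04 RPM with 2-HG. The scale understates its 0.548-fold ratio of means because 1 RPM was added, and the ratio was 0.724 for Arnt. The call of Epas1 was lost without any one library other than 2-HG(+) 3 (0.059 to 0.086), under quantile normalization (0.16) and with DESeq2 (0.076). That of Arnt was lost without 2-HG(-) 1, 2-HG(-) 3 or 2-HG(+) 1 (0.0546 to 0.093), with no filter (0.15) and without moderation (0.11). The rise of Ogt in 2MUT cells (0.41, limma, adjusted p = 0.02) was lost without Control 2 (0.067) or 2MUT 2 (0.088), with no trend (0.065) and without moderation (0.11). Slc23a2, a transporter of ascorbate, which keeps the iron of these enzymes reduced, rose by 0.60 in 2MUT cells (limma, adjusted p = 0.0042).

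Genes of 2-oxoglutarate supply and 2-HG removal formed a further list, of 19 genes. In 2MUT cells 2 of 19 rose and 5 fell, and with 2-HG 6 of 17 rose and 1 fell. In 2MUT cells these were 10.5% and 26.3%, where 16.5% of all genes rose and 17.3% fell. With 2-HG they were 35.3% and 5.88%, where 16.1% of all genes rose and 16.7% fell. The largest rises with 2-HG were of Gpt2 and Psat1, aminotransferases that yield 2-oxoglutarate from glutamate, by 1.68 ± 0.15 and 1.40 ± 0.10 (limma, adjusted p = 4e-05 and 9.7e-06). Got1 fell in 2MUT cells and rose with 2-HG (-0.52 and 0.77), as did Idh3a (-0.38 and 0.71) and Idh2 (-0.63 and 0.43), whereas Idh1 rose in 2MUT cells and fell with 2-HG (0.64 and -0.33). The fall of Got1 in 2MUT cells was lost without moderation (limma, adjusted p = 0.066). The falls of Idh3a in 2MUT cells and of Idh1 with 2-HG and the rise of Idh2 with 2-HG were each lost without some libraries. These were 2MUT 1 or 2MUT 2 for Idh3a (limma, adjusted p = 0.076 and 0.057), 2-HG(-) 3 or 2-HG(+) 2 for Idh2 (0.0547 and 0.0518) and any one other than 2-HG(-) 2 or 2-HG(+) 3 for Idh1 (0.076 to 0.15). All 3 were also lost without moderation (0.059, 0.0509 and 0.094, in the order Idh3a, Idh2 and Idh1), Idh2 and Idh1 with no filter (0.065 and 0.13), and Idh3a and Idh1 with no trend (0.0516 and 0.065). For each of these 4 genes the difference between the comparisons passed (limma, adjusted p from 0.00012 to 0.00059). Adhfe1, a transhydrogenase that forms 2-HG, was at 2.81, 2.99 and 1.23 RPM in Control and at 0.155, 0.293 and 0.275 RPM in 2MUT libraries, the latter 1 or 2 reads each. D2hgdh, a dehydrogenase that removes 2-HG, passed in neither comparison. In these last lists P4hb, Ogt, Epas1, Arnt, Adhfe1 and D2hgdh were named after their values were seen.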

How the data were processed

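Libraries of MEF RNA, made with the Ion AmpliSeq Transcriptome Mouse Gene Expression kit, were sequenced, aligned with TMAP and counted per gene with the AmpliSeqRNA plug-in by the authors, who deposited RPM in a table for each experiment. Each library summed to 1000000 within rounding, and 100% of values were whole multiples of 1 read (tolerance about 0.0005 RPM, wider for high values). The read totals and the reads per gene given above were recovered from the RPM values on this basis. The members, lists and tests were chosen with earlier results of these data known. Tests used limma 3.58.1 in R 4.3.3 with a mean-variance trend on log2(RPM + 1), within a table, for genes averaging 1 RPM or more, with Benjamini-Hochberg adjustment over all genes tested and a threshold of 0.05. Moderation replaced the per-gene test of the study. The difference between the comparisons was fitted over 12 libraries. The alternatives were an added value of 0.1, no filter, a filter at 10 RPM, a floor of 1 RPM, quantile normalization, median-of-ratios and TMM scaling, a fit without the trend, a test without moderation, a block for the replicate number, each library left out, and, for the separate comparisons, edgeR 4.0.16 and DESeq2 1.42.0 on whole reads. Every member could be named. Values of all libraries were required for members that passed with an absolute log2 fold change of at least 0.5 and no overlap, and for other lists at most 6 such genes, plus Idh1, Idh2 and Hif1a. Gene positions come from GENCODE M21 (GRCm38). Older symbols were matched through RefSeq synonyms. Amplicon positions were not used here, so levels were not compared between genes. Tables were handled with pandas 2.3.3 and drawn with matplotlib 3.10.9. A gene of these lists is not reported here.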

Additional observations from a re-analysis of the deposited data

Results flagged for a closer look

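For 10 members the change differed between the mutant and the 2-HG experiment by the test of the difference itself. The change in 2MUT cells minus the change with 2-HG, on the log2(RPM + 1) scale, was 2.14 for P4ha3, 0.89 for Plod1, 0.69 for Plod2 and 0.50 for P4ha2 among the collagen hydroxylases. It was 1.29 for Kdm8, 0.86 for Kdm5a, 0.82 for Kdm5b and 0.66 for Kdm3a among the JmjC demethylases and hydroxylases, and 0.68 for Tet2 and 0.55 for Tet3. P4ha3 and Plod1 rose in one comparison and fell in the other, whereas P4ha2 rose in both.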

How the results depend on the processing

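No direction of a called member reversed under any alternative. In 2MUT cells 6 of the 13 calls were kept under every alternative (Tet3, Kdm5a, Kdm5b, P4ha2, P4ha3 and Plod2), with 2-HG 1 of 7 (P4ha3), and for the difference between the changes 7 of 10, the exceptions being Kdm3a, P4ha2 and Plod2. The count of members that rose in 2MUT cells went from 11 to 7 with no trend. The count that fell went from 2 to 1 with no filter, with a floor of 1 RPM and with no trend, and to 0 with the unmoderated test. With 2-HG the 1 rise became 0 with no filter, with the unmoderated test and with the replicate block, and the 6 falls became 2 with no filter and with the unmoderated test. The count of members with a smaller change in 2MUT cells went from 0 to 4 with quantile normalization, and to 1 with median-of-ratios scaling, TMM scaling and no trend. The cause of these moves was not tested. With one library left out, 7 to 12 members rose and 0 to 2 fell in 2MUT cells, 0 to 4 rose and 3 to 7 fell with 2-HG, and the difference was larger in 2MUT cells for 9 to 12 and smaller for 0 to 2. Same-numbered libraries did not deviate together (correlations of 0.071, 0.029 and 0.032 in the mutant and of -0.457, -0.158 and 0.057 in the 2-HG experiment). Across numbers, the correlation was 0.48 for 2-HG(-) 2 with 2-HG(+) 1 and 0.413 for 2-HG(-) 1 with 2-HG(+) 3. It was -0.414 for 2-HG(-) 2 with 2-HG(+) 3. From 3 libraries per group, these values cannot settle whether the numbers pair the libraries. With the replicate block 11 members rose and 2 fell in 2MUT cells, 0 rose and 4 fell with 2-HG, and the difference was larger for 11 and smaller for 0. It ended the calls with 2-HG of P4ha2, Kdm3a and Kdm3b (limma, adjusted p = 0.068, 0.096 and 0.12). Among the genes named outside the members, the block ended the calls with 2-HG of Cd68, Epas1, Jmjd8 and Idh1 (0.066, 0.065, 0.085 and 0.092). It also ended that of Riox2 in 2MUT cells (0.0522). Calls in 2MUT cells were also lost with no filter (Jmjd6, Plod1 and Alkbh1, limma, adjusted p from 0.14 to 0.24), with no trend (Jmjd6, Egln1, Plod1, Fto and Asph, 0.075 to 0.12), with the unmoderated test (Kdm8, Egln1, Alkbh1, Fto and Asph, 0.055 to 0.2), with a floor of 1 RPM (Alkbh1 and Asph, 0.0503 to 0.0506), with an added value of 0.1 (Plod1 and Asph, 0.0505 to 0.0507) and with a filter at 10 RPM (Asph, 0.0504). The difference was lost with no filter for Kdm3a and Plod2 (0.056 and 0.16), and for Plod2 also under 2 other scalings, with no trend and with the unmoderated test (0.061 to 0.11). Members under 1 RPM, and those at a few reads such as Kdm8 and Kdm6a in the mutant experiment, are limited by depth.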

Other observations

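Jmjd4, a JmjC hydroxylase outside the members, was at 20 and 21.2 RPM in Control libraries 1 and 2 and at 17.6 to 21.3 RPM in the 2MUT libraries, but at 0.82 RPM in Control library 3. In the same library P3h2 was at 272 RPM, against 505 and 536 RPM in the other Control libraries. In the 2-HG experiment Jmjd4 was at 22.3 to 31.3 RPM in all 6 libraries. These genes were singled out after their values were seen, and the cause was not tested.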
